A study of Mus musculus with 6 samples.

Results

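The glycosyltransferases that build the outer sugar chains of glycolipids and glycoproteins were examined in a mouse acute myeloid leukaemia line after treatment with DB2313, a small molecule described as an inhibitor of the ETS transcription factor PU.1. Members were all genes whose symbol marks a transferase of the B3gnt, B3galt, B4galt, B4galnt, St3gal, St6gal, St6galnac, St8sia, Fut or Gcnt families, together with Ugcg and Ugt8a, and each gene was represented by its row of highest mean over all arrays. The rule found 59 genes among 22180 tested. B3gnt5 was singled out among them because of its difference between DB2313 and vehicle in these arrays, so its values are given as a description, with no test, and the other 58 members were taken by name.

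The DB2313 group consisted of cells of the PU.1low URE-/- line given 330 nM of the compound, and the vehicle group of cells of the same line given an equal volume of water; RNA of both was collected after 24 h. The line was derived from a single leukaemic mouse that lacked an upstream regulatory element (URE) of Spi1, the gene of PU.1, so cells of both groups carry that deletion and low PU.1; the sources used here do not say whether the line is 1 clone, or name the strain. Each group had 3 Affymetrix arrays, named as biological replicates; nothing says that they came from separate cultures, so p-values cover the spread among these samples alone, which may be technical. Values are the deposited signals on a log2 scale, and a signal of one gene is not set against that of another, because probe sets respond differently.

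Over whole arrays, the median signal lay between 4.77 and 4.82, and Pearson's r across genes was 0.996 within groups and 0.994 to 0.995 between them. Of 13 myeloid and granulocyte markers measured, the granule protease gene Elane averaged 13.05 and the lysozyme gene Lyz2 averaged 12.05 over all arrays. The pan-leukocyte gene Ptprc was at 3.31 and the neutrophil surface gene Ly6g at 3.95, near the lower end of the scale. Groups did not overlap for 4 of the 13, 1 higher and 3 lower with DB2313, where 19.3% of all genes tested did not overlap. They were Mpo (log2 difference 0.29, limma adjusted p = 0.281), Fcgr3 (-0.29, 0.168), Lyz2 (-0.13, 0.490) and Spi1. Spi1 was at 6.52, 6.49 and 6.50 in the DB2313 arrays, against 6.79, 6.88 and 6.95 in the vehicle arrays, and lower with limma (log2 difference -0.37, adjusted p = 0.0342, not past 0.05 when any 1 array was left out, up to 0.134). Means of the measured markers lay between 3.25 and 4.43 for 5 B cell markers, between 3.40 and 4.50 for 7 T and NK cell markers and between 3.63 and 5.70 for 6 fibroblast and stromal markers, and none of these was called. Means lay between 5.10 and 5.57 for 3 erythroid markers and between 3.78 and 5.05 for 4 megakaryocyte markers, and none was called. Among the erythroid and megakaryocyte markers, Klf1 (log2 difference -0.26) and Gp9 (-0.27) were lower without overlap (limma adjusted p = 0.318 and 0.114), and the rest overlapped. Among the fibroblast and stromal markers, Dcn was higher without overlap (log2 difference 0.25, limma adjusted p = 0.301). Of 5 endothelial markers, Cdh5 was higher with DB2313 (log2 difference 0.86, limma adjusted p = 0.00222), where 1.81% of all genes tested were called. The other 4 were not called, with log2 differences of 0.11 for Pecam1, 0.20 for Tek, -0.01 for Kdr and -0.04 for Emcn. The part of Cdh5 in the results below was not tested.

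Glycosphingolipids are built on ceramide, to which glucose and then galactose are added to give lactosylceramide. Lactosylceramide is a branch point: B3gnt5 adds N-acetylglucosamine and opens the lacto and neolacto series, which are abundant on human neutrophils, St3gal5 adds sialic acid and opens the ganglio series, B4galnt1 adds N-acetylgalactosamine, and A4galt opens the globo series. The lacto and neolacto chains are lengthened by further galactosyl and N-acetylglucosaminyl transferases and capped by sialic acid and fucose, and the same capping enzymes finish the chains of glycoproteins, among them the ligands of selectins on leukocytes.

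The upstream sequence of B3gnt5 is shown because the compound is described as acting on an ETS factor, whose family recognises a GGAA core, and beside it stand those of Mgat4a and Mgat5, the genes of the neighbouring pathway lists described further on that were higher with DB2313. Each run is the 250 bases before the start of transcription in the RefSeq annotation of mouse build GRCm38.p6, written 5′ to 3′ on the strand of the gene, and the capitals mark GGAA on either strand, which reads TTCC when it lies on the opposite one. B3gnt5 lies on the plus strand (chr16:19759984-19760233), Mgat4a on the minus strand (chr1:37541017-37541266, the farther upstream of 2 annotated starts) and Mgat5 on the plus strand (chr1:127204736-127204985).
B3gnt5: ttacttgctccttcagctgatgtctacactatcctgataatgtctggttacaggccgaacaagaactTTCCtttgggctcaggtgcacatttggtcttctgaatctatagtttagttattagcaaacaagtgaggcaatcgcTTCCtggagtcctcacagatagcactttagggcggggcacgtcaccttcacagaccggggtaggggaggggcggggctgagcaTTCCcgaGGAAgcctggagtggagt
Mgat4a: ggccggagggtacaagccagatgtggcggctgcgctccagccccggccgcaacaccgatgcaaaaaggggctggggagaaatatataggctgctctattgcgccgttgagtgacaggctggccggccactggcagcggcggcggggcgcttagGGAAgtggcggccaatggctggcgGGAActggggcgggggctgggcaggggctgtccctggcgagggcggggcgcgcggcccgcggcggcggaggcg
Mgat5: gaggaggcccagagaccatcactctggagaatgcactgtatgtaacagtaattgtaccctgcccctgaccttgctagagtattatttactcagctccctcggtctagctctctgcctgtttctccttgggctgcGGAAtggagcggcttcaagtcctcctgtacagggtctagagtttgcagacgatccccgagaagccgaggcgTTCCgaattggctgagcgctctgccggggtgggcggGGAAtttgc
The B3gnt5 window holds 4 GGAA cores, against a median of 3 over all 32851 windows of the same length, and 33.4% of all windows hold at least 4. The printed Mgat4a window holds 2 and the window at its other start, not printed, holds 7; that of Mgat5 holds 3. The longer string GAGGAAG, which contains a GGAA core, was searched on both strands and occurs in 1 place in the B3gnt5 window, in none of those printed for Mgat4a and Mgat5, in 10.6% of all windows and in 11 of the 58 windows (19%) found for 43 of the 59 members. No binding was measured in these samples, and a match is a description of the letters.

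B3gnt5 had the largest difference of the 59 members. It was singled out for its difference in these same arrays, so the separation given here is a description and no independent support. Its signal was 7.50, 7.78 and 7.82 in the DB2313 arrays, against 5.91, 5.94 and 6.26 in the vehicle arrays. All DB2313 values lay above all vehicle values, and the gap between the groups was wider than the spread within either. The means were 7.70 ± 0.17 with DB2313 and 6.03 ± 0.19 with vehicle (log2, SD, n = 3 each), a log2 difference of 1.66 (SE 0.121), or 3.17-fold. Since the RNA came from the whole culture, a larger share of cells with the transcript and more transcript per cell cannot be told apart. B3gnt5 was represented by a single row, so a second probe set was not there to compare it with.

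None of the other 58 members passed an adjusted p of 0.05 in limma, fitted over all genes with Benjamini-Hochberg adjustment, where 1.81% of all genes tested did (1.02% higher, 0.789% lower). Without adjustment, 6 of the 58 had a p under 0.05, 3 higher and 3 lower, where 12.7% of all genes did. Their log2 differences ran from -0.28 for B4galt5 to 0.29 for B3galt4. Of the 58, 32 lay within 0.1 of 0, as did 13250 of all 22180 genes tested. The median was -0.026, against -0.0024 over all genes tested, with 23 members above 0 and 35 below; the median absolute difference was 0.083, against 0.079 over all genes. For 55 members the 95% confidence interval lay between -0.5 and 0.5, as it did for 20220 of all 22180 genes tested. The exceptions among the members were B3galt4 (0.05 to 0.54), B3gnt9 (-0.16 to 0.62) and Fut9 (-0.55 to 0.25). The 3 DB2313 values lay all above the vehicle values for 5 of the 58 and all below for 5, together 17.2% of them, where 19.3% of all genes tested had groups that did not overlap. The plot of differences by role shows B3gnt5 apart from the remaining points.

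**Figure D1:**
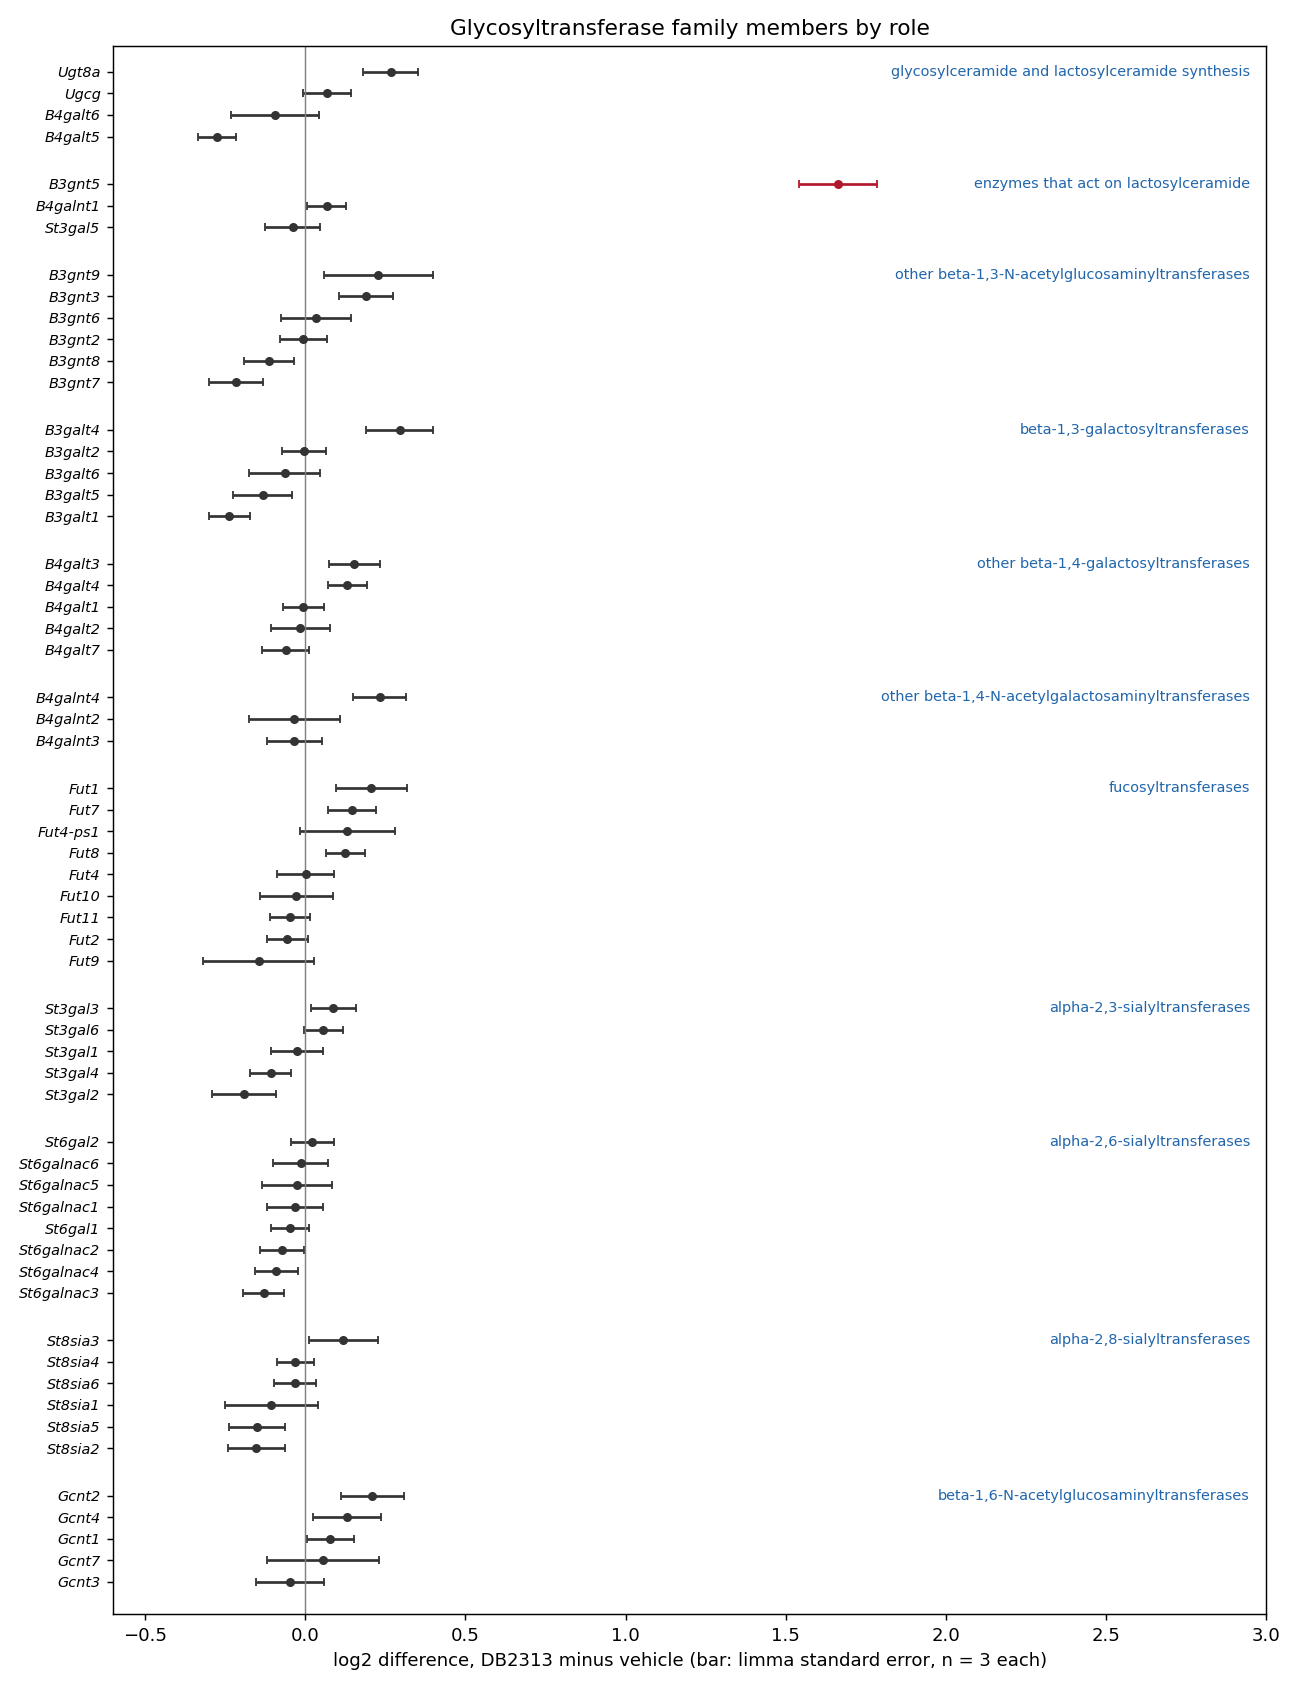
Log2 difference, DB2313 minus vehicle, for each of the 59 members, grouped by the reaction the enzyme carries out; points are differences of group means (n = 3 each) and bars the limma standard error. B3gnt5, in red, is at 1.66, and the others lie between -0.28 and 0.29.

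Values were also set against the vehicle mean array by array. Relative to the vehicle mean, B3gnt5 stood at 1.46, 1.74 and 1.78 in the DB2313 arrays, against -0.12, -0.10 and 0.22 in the vehicle arrays. In the DB2313 arrays the highest of the other members reached 0.38 (Gcnt2), 0.50 (B3gnt9) and 0.40 (Fut1), and the lowest was -0.35 (St3gal2), -0.42 (St8sia1) and -0.30 (B4galt6), a different gene each time. In the vehicle arrays the highest reached 0.19 (Gcnt4), 0.24 (B3gnt9) and 0.43 (Fut9), and the lowest was -0.35 (Fut4-ps1), -0.35 (Gcnt7) and -0.33 (B3gnt9). Each vehicle array is itself part of the vehicle mean, which draws its values toward 0. The median of the other members was 0.0061, 0.0086 and -0.032 in the DB2313 arrays, against -0.021, 0.028 and -0.011 in the vehicle arrays, close to 0 on every array.

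**Figure D2:**
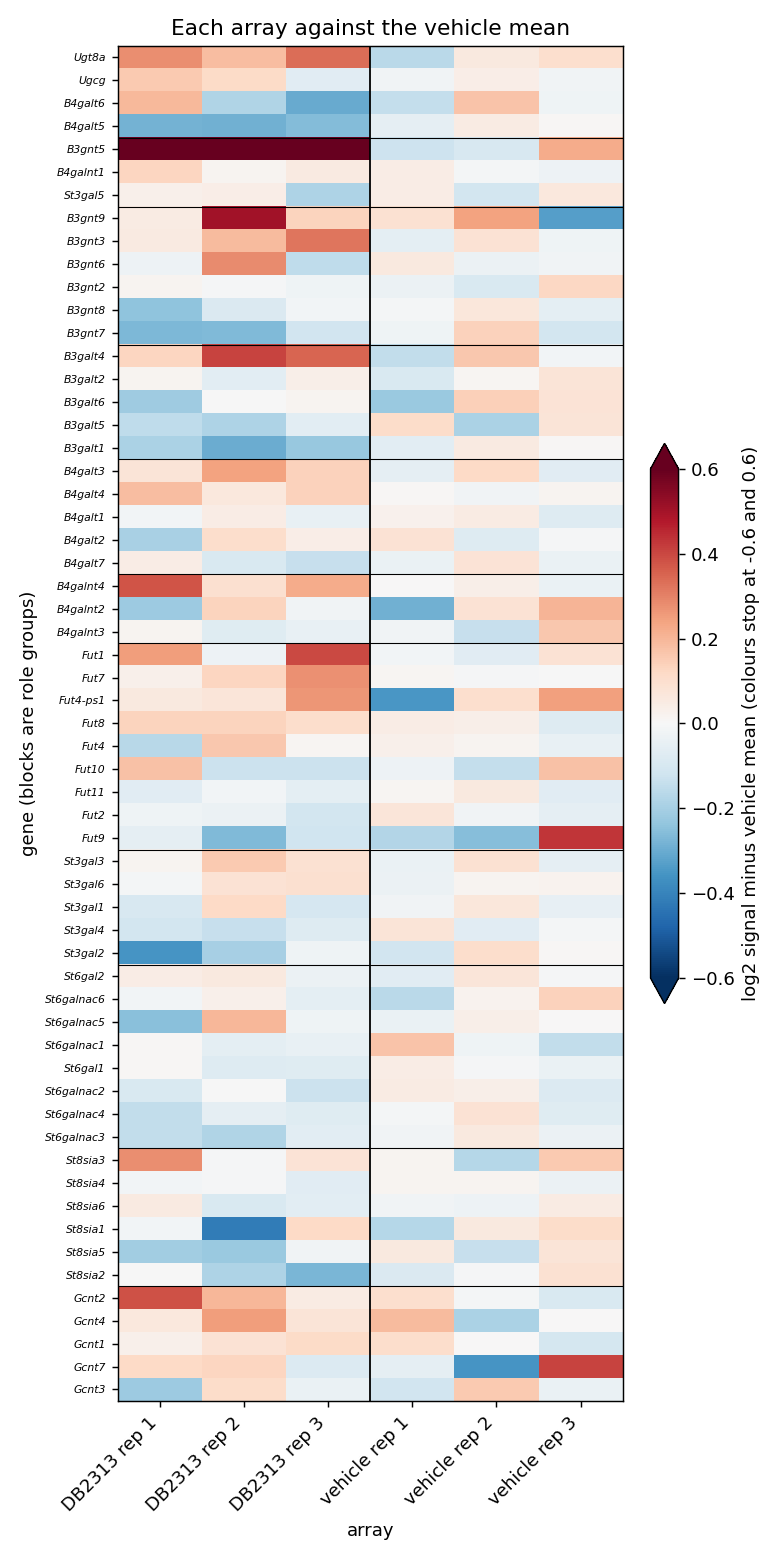
Log2 signal of each member on each array minus the mean of the 3 vehicle arrays, with DB2313 arrays on the left; blocks are role groups, and colours stop at -0.6 and 0.6. B3gnt5 is dark red on all DB2313 arrays (1.46 to 1.78). Among the other genes, the highest and lowest values on any DB2313 array were 0.50 (B3gnt9) and -0.42 (St8sia1). Smaller differences, such as that of B4galt5, run over all 3 DB2313 arrays.

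The enzymes that supply lactosylceramide gave small differences. Ugcg, which transfers glucose to ceramide, was at 7.83, 7.79 and 7.60 with DB2313, against 7.65, 7.71 and 7.65 with vehicle. These values overlapped, with a log2 difference of 0.07 (95% interval -0.11 to 0.24, limma adjusted p = 0.785). B4galt5, the main lactosylceramide synthase, was at 7.80, 7.79 and 7.82 with DB2313, against 8.02, 8.13 and 8.08 with vehicle. Every DB2313 value was below every vehicle value. Its log2 difference was -0.28 (SE 0.059), with the smallest p of the 58 members, and it did not pass (limma adjusted p = 0.0762). It passed where genes of low signal were left out (adjusted p = 0.0413), after adding 32 to the linear signals, an offset that damps dim genes (0.00889) and with a trended and robust prior (0.00889), and not in the remaining 10 alternatives (up to 0.228). B4galt6, a second lactosylceramide synthase, was at 3.83, 3.45 and 3.33 with DB2313, against 3.49, 3.80 and 3.61 with vehicle, so its groups overlapped at a signal near the lower end of the scale. Ugt8a, which makes galactosylceramide, the lipid of myelin, was at 8.32, 8.22 and 8.37 with DB2313, against 7.88, 8.10 and 8.14 with vehicle. Its groups did not overlap, but its log2 difference of 0.27 did not pass (limma adjusted p = 0.239).

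The other enzymes that act on lactosylceramide overlapped between the groups. St3gal5, the synthase of the ganglioside GM3, was at 4.70, 4.71 and 4.49 with DB2313, against 4.72, 4.56 and 4.74 with vehicle (log2 difference -0.04, 95% interval -0.24 to 0.16). B4galnt1, which makes the ganglioside GM2 and its relatives, was at 11.20, 11.09 and 11.13 with DB2313, against 11.12, 11.06 and 11.04 with vehicle (log2 difference 0.07, 95% interval -0.08 to 0.21). A4galt, the synthase of the globo series, is no member by name but uses the same substrate. It was at 3.79, 3.67 and 3.96 with DB2313, against 3.94, 4.05 and 3.91 with vehicle (log2 difference -0.16, 95% interval -0.37 to 0.04), and its mean lay under the 0.25 quantile of all genes. The limma adjusted p of these 3 genes lay at 0.902, 0.734 and 0.510.

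**Figure D3:**
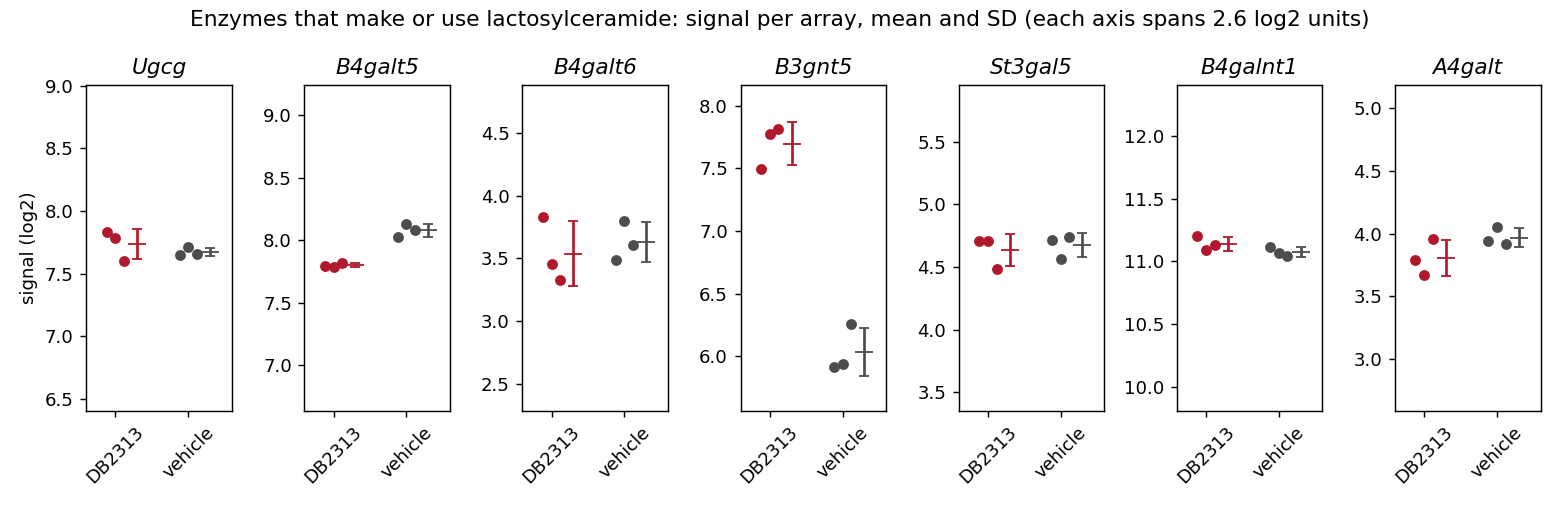
Signal (log2) on each array for the enzymes that make lactosylceramide (Ugcg, B4galt5, B4galt6) and for those that act on it (B3gnt5, St3gal5, B4galnt1, A4galt), with DB2313 in red on the left and vehicle in grey; crosses show the mean and SD of 3 arrays, and every panel spans the same number of log2 units. The B3gnt5 groups lie 1.66 apart, the B4galt5 groups do not overlap with DB2313 lower, and the other panels overlap.

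Among the remaining N-acetylglucosaminyl transferases closest to B3gnt5 by name, 3 had differences above 0 and 3 below. B3gnt7, which lengthens keratan sulfate chains, was at 4.27, 4.28 and 4.42 with DB2313, against 4.52, 4.68 and 4.43 with vehicle. The groups did not overlap, by a margin that was narrow between the nearest arrays, and its log2 difference of -0.22 did not pass (limma adjusted p = 0.344). A second row of B3gnt7 had a log2 difference of 0.08, the opposite sign. B3gnt2, the main polylactosamine synthase of N-glycans, had a log2 difference of -0.01, and B3gnt3, which extends O-glycans, had 0.19 (limma adjusted p = 0.418). B3gnt4 was covered by a row shared with another gene, Diablo, and was left out of the test.

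Of the 5 transferases that add galactose in the beta-1,3 linkage, B3galt1 and B3galt4 had an unadjusted p under 0.05, as did 12.7% of all genes tested. B3galt1, which makes type 1 chains, was at 6.21, 6.10 and 6.17 with DB2313, against 6.33, 6.45 and 6.40 with vehicle. Its groups did not overlap, with a log2 difference of -0.24 (SE 0.064, limma adjusted p = 0.160). B3galt4, which makes the ganglioside GM1, was at 5.74, 6.02 and 5.96 with DB2313, against 5.46, 5.77 and 5.59 with vehicle. Those groups overlapped in 1 pair of arrays, with a log2 difference of 0.29 (SE 0.105, limma adjusted p = 0.296). Of the 5 other transferases that add galactose in the beta-1,4 linkage, the differences ran from -0.06 to 0.15. B4galt4 was at 6.86, 6.74 and 6.82 with DB2313, against 6.68, 6.66 and 6.70 with vehicle (log2 difference 0.13, limma adjusted p = 0.437). B4galt1, the main such enzyme for N-glycans, had a log2 difference of -0.01 with an interval from -0.15 to 0.14. Among 3 transferases of N-acetylgalactosamine, B4galnt4 was at 5.46, 5.17 and 5.30 with DB2313, against 5.08, 5.12 and 5.04 with vehicle, and its log2 difference of 0.23 did not pass (limma adjusted p = 0.290).

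Enzymes that cap and branch the chains gave no call either. Fut7, which adds the fucose of sialyl Lewis x in leukocytes, was at 7.58, 7.68 and 7.82 with DB2313, against 7.56, 7.54 and 7.54 with vehicle. All DB2313 values were above the vehicle values, 1 of them by a small margin, and the log2 difference was 0.15 (95% interval -0.03 to 0.32, limma adjusted p = 0.489). Fut4, the other myeloid fucosyltransferase of Lewis x, averaged 4.19 over all arrays, below the median of 5.17 over all genes tested. At that low signal it had a log2 difference of 0.00 with an interval from -0.21 to 0.21. The pseudogene Fut4-ps1 is also a member, and signal of probes shared by such copies could not be separated here. Fut8, which adds the core fucose of N-glycans, averaged 9.08 ± 0.02 with DB2313 and 8.96 ± 0.07 with vehicle (SD, n = 3 each), without overlap (log2 difference 0.13, limma adjusted p = 0.465). The 9 fucosyltransferase genes together ran from -0.15 to 0.21.

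None of the sialyltransferases passed, and over all genes tested 11280 of 22180 differences lay below 0. Of 5 that work in the alpha-2,3 linkage apart from St3gal5, St3gal2 had -0.19 (limma adjusted p = 0.488) and St3gal4, which caps type 2 chains and the selectin ligands, had -0.11 with groups that did not overlap (limma adjusted p = 0.550). St3gal6, which shares that role, had 0.06 with an interval from -0.09 to 0.20. Of 8 in the alpha-2,6 linkage, 7 were below 0, between -0.13 for St6galnac3 and -0.01 for St6galnac6, and St6gal2 was at 0.02. Of 6 in the alpha-2,8 linkage, 5 were below 0, led by St8sia2, a polysialyltransferase, at -0.15 (limma adjusted p = 0.543). A second row of St8sia5 had a log2 difference of 0.19, while the row kept had -0.15. Among the 5 branching enzymes of the Gcnt genes, Gcnt2, which makes the branched I antigen, had 0.21 (limma adjusted p = 0.437) and Gcnt1, which makes core 2 O-glycans, 0.08 (95% interval -0.09 to 0.25). Further rows of Gcnt2 had log2 differences of 0.03 and -0.02.

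The neighbouring steps were read from 4 lists of genes outside the family, of which 79 of 92 were measured. The lists were chosen with earlier results of these data known, so their counts beside the shares over all genes are a description. Of 24 enzymes that build the cores of N- and O-glycans, 2 rose, none fell and 22 did not pass, where 1.02% of all genes tested were called higher and 0.789% lower. Mgat4a, which adds a branch to the alpha-1,3 arm of N-glycans, was at 9.22, 9.29 and 9.40 with DB2313, against 8.36, 8.26 and 8.24 with vehicle. The groups were far apart compared with the spread in each, with a log2 difference of 1.02 (SE 0.071, limma adjusted p = 0.00100), or 2.03-fold, and the call held in all 13 alternatives (adjusted p up to 0.0152). Mgat5, which adds the branch on which polylactosamine is preferentially built, was at 9.74, 9.73 and 9.74 with DB2313, against 9.32, 9.29 and 9.31 with vehicle. It rose by 0.43 on the log2 scale (SE 0.055, limma adjusted p = 0.0112), a call that was lost in 5 of the 6 settings without 1 array (up to 0.0602; 0.0465 without vehicle replicate 3) and with the replicate number as a block (0.0608). The enzymes that act before them on the same chains, Mgat1 and Mgat2, had log2 differences of -0.10 and -0.03 (chosen after their values were seen; limma adjusted p = 0.626 and 0.890). The median of the list was -0.01.

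Of 20 genes of ceramide and other glycolipid synthesis, 1 fell, none rose and 19 did not pass, beside the same shares of 0.789% lower and 1.02% higher over all genes. Degs1, the desaturase that turns dihydroceramide into ceramide, was at 6.891, 7.002 and 7.123 with DB2313, against 7.460, 7.494 and 7.384 with vehicle. It did not overlap between groups, with a log2 difference of -0.44 (SE 0.077, limma adjusted p = 0.0369), a call lost without any 1 array (0.0596 to 0.132) and with the replicate block (0.119). Its upstream window holds 0 GGAA cores, where 93.4% of all windows hold at least 1. A link between cores and the direction of a difference was not tested. None of 15 genes of glycolipid breakdown passed in limma, 1 of them with an unadjusted p under 0.05, where 12.7% of all genes had one. That gene was Hexa, a subunit of lysosomal hexosaminidase, at 0.19 (limma adjusted p = 0.247; 0.0340 with a trended and robust prior). None of 20 genes of nucleotide sugar supply passed in limma, 4 of them with an unadjusted p under 0.05, beside the same 12.7% of all genes. The smallest p was that of Slc35c1, the Golgi carrier of GDP-fucose, at 8.78, 8.75 and 8.75 with DB2313, against 8.43, 8.46 and 8.52 with vehicle. Its groups did not overlap, with a log2 difference of 0.29 (limma adjusted p = 0.0603), and it passed with genes of low signal left out (0.0322), with the offset (0.00587) and with the trended prior (0.00291). The list medians were -0.06 for ceramide and glycolipid synthesis, 0.02 for breakdown and 0.02 for nucleotide sugar supply, against -0.0024 over all genes.

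**Figure D4:**
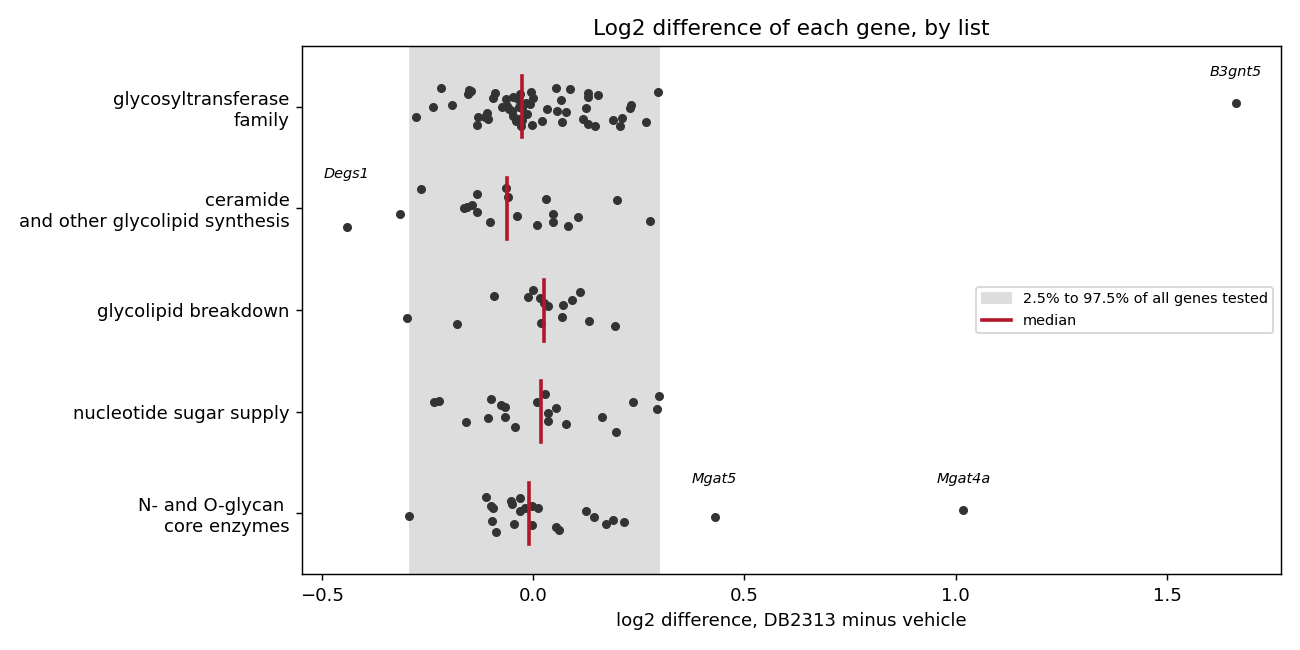
Log2 difference, DB2313 minus vehicle, of each family member and of each gene in 4 neighbouring lists; red bars are list medians and the grey band spans 95% of all genes tested (-0.29 to 0.30). B3gnt5 (1.66), Mgat4a (1.02), Mgat5 (0.43) and Degs1 (-0.44) lie outside the band, and most other points lie within it.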

How the data were processed

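RNA of 3 DB2313 and 3 vehicle samples was hybridised to Affymetrix arrays. Affymetrix Expression Console was used, per the submitters' processing notes, with no version given; how background was corrected and probes were summarised is not stated in those notes. The deposited values are on the log2 scale, 1 per probe set and array, as judged from its range, and the nearly equal quartiles of the arrays leave a normalization before deposit likely. Of 41345 rows, 23521 had 1 gene symbol in the platform annotation, 1814 had several and 16010 had none. Rows with 1 symbol were kept, with the row of highest mean per gene, which left 22180 genes. The family had 65 such rows and 5 rows with several symbols.

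The test of DB2313 against vehicle was that of limma 3.58.1 (R 4.3.3, lmFit, eBayes, 2-sided, Benjamini-Hochberg over all genes at 0.05, no minimum fold). The step was tested on simulated data drawn from limma's own error model. Such data check the code alone, not the calls in these arrays. Unless named otherwise, errors are SDs over 3 arrays or limma standard errors. The number of arrays limits the precision. The members, the lists and the alternatives were chosen with earlier results of these data known. Genes named are B3gnt5, the makers and users of lactosylceramide, members with an unadjusted p under 0.05, the smallest p in each role group, the selectin ligand enzymes, Spi1, and the list members past the threshold or with the smallest p; further genes stand for extremes, second rows or contrast.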

Additional observations from a re-analysis of the deposited data

How the results depend on the processing

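Each result was recomputed under 13 alternatives, 6 of which left out 1 array. The number of genes past the threshold, 401, was 830 with an offset of 32, 920 with a trended and robust prior and 190 with the replicate block, and 136 to 187 without 1 array. The log2 difference of B3gnt5 was 1.30 with the offset, 1.60 to 1.77 without 1 array and 1.65 to 1.67 in the other alternatives. The count of other members past the threshold, 0, was 1 (B4galt5) with genes below the 0.25 quantile left out, with the offset and with the trended prior, and 0 without any 1 array. Their median stayed between -0.032 and 0.0061. The ceramide and glycolipid synthesis list, with 1 gene called, had 2 with the offset and 2 with the trended prior (Degs1 and Cers6), 0 with the replicate block and 0 without any 1 array. The breakdown list, with 0, had 1 with the trended prior, and the nucleotide sugar list, with 0, had 1 under the filter, the offset and the trended prior. The N- and O-glycan core list, with 2, had 4 with the offset, 3 under the filter and 3 with the trended prior. It had 1 with the replicate block and 1 to 2 without 1 array. Galnt11 was called lower under the filter (log2 difference -0.29, limma adjusted p = 0.0416) and with the offset (-0.20, 0.0194). C1galt1 was called higher with the offset and with the trended prior. Samples that share a replicate number deviated from their group means with r of 0.023, 0.078 and 0.0083. For samples with different numbers, r lay between -0.071 and 0.047. The main fit did not use the numbers to pair the samples, and these values do not settle whether they pair them. Degs1, Mgat5 and Spi1 did not pass under the block. The causes of these changes were not tested. Of the 58 other members, 53 had a mean signal at or above the 0.25 quantile of all genes, and the offset damps differences of dim genes.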

Other observations

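Rows outside the test gave no value of the size of B3gnt5. The 6 further rows of B3gnt7, Gcnt2, B4galt7, Fut11 and St8sia5 had log2 differences from -0.08 to 0.19. The 5 rows that the annotation assigns to a member together with another gene had -0.07 for the row of B4galt2 and Ccdc24, -0.01 for that of B3gnt4 and Diablo, 0.06 for that of St8sia1 and Gm7457, 0.09 for that of St8sia3 and its antisense gene, and 0.21 for that of St6gal1 and BC106179. None of these rows was tested.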
